A study of Mus musculus with 6 samples.

Results

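The genes described here belong to glycolysis, the breakdown of glucose to pyruvate and lactate, and to the transcriptional response to low oxygen. They were taken by symbol from a table of 48709 genes, and 33 of 33 symbols were found. By role they are 2 carriers for uptake and export, 14 enzymes, 3 regulators of flux, 3 genes of oxygen sensing and 11 transcripts known to be induced by hypoxia. The first 3 roles make up 19 glycolysis genes and the last 2 make up 14 hypoxia genes, and the comparison asked whether these sets differed between genotypes in the same way. All 33 passed the filter on low counts, which left 17757 genes for testing.

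RNA sequencing had been done on gingiva, the mucosa around the teeth, of C57BL/6 mice aged 12 weeks. Plg KO mice lack plasminogen, the precursor of the protease plasmin that dissolves fibrin, and Plg WT mice are their littermates with the gene intact. Each genotype has 3 libraries, with 26183389 to 36429150 gene counts per library, and the sources used here do not give how the Plg allele was made. Plg, a transcript made mainly in the liver, had 2 counts in Plg WT 3, 2 in Plg KO 1 and 0 in the other 4 libraries, so it gives no check of the labels. The labels do not say that the libraries of a genotype are from separate animals. By the Y-linked transcript Ddx3y (1475 and 1838 counts, against at most 2 elsewhere) Plg WT 3 and Plg KO 1 came from males and the other 4 libraries did not, so at least 2 animals stand behind each genotype. The p-values measure how these libraries spread, part of which may be technical.

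Cells take up glucose through carriers of the Slc2a family, split it in the cytosol to pyruvate and, when oxygen is short or growth is fast, reduce pyruvate to lactate and export it with a proton. The transcription factor subunit Hif1a is made continuously, is marked for destruction by the prolyl hydroxylases Egln1 and Egln3 when oxygen is present, and otherwise switches on most glycolytic genes together with Vegfa, Car9 and other targets. Its protein is controlled mainly after translation, so transcript levels do not measure its activity. In squamous epithelia and in neutrophils, which live largely on glycolysis, many of these genes are expressed at normal oxygen.

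In the gingiva of Plg KO mice the lactate exporter Slc16a3 had 2.03-fold and Hif1a 1.72-fold the mean level of Plg WT, and the glucose carrier Slc2a1 and the flux regulator Pfkfb3 had 1.35-fold and 1.37-fold. The enzymes of the pathway differed little, with log2 differences between -0.31 and 0.26. The hypoxia targets went both ways, with Car9 at a log2 difference of 0.61 and Ddit4 at -0.62. In the quasi-likelihood test of edgeR, adjusted over all genes by the method of Benjamini and Hochberg, 0 of 33 members passed an adjusted p under 0.05, where 0.237% of all tested genes did. At an unadjusted p under 0.05 in edgeR, 5 members were higher in Plg KO (Slc2a1, Slc16a3, Pfkfb3, Hif1a and Egln3) against a background of 4.97% of all genes, and 1 was lower (Ddit4) against 4.27%. DESeq2 called 2 members, Slc16a3 and Hif1a, both higher, with 2.36% of all genes called, and limma-voom called 0 members, with 0.231% of all genes called.

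The groups of 3 libraries did not overlap for 10 members. In 8 of them every Plg KO library was above every Plg WT library (Slc2a1, Slc16a3, Pfkp, Pgk1, Ldha, Pfkfb3, Hif1a and Car9), an order found in 7.51% of all genes. In 2 of them every Plg KO library was below (Ankrd37 and Ddit4), an order found in 7.18% of all genes. Over the whole set 25 of 33 log2 differences were positive (75.8%, against 49.2% of all genes tested), and their median was 0.13 against -0.00 for all genes. In the plot of differences by role, Slc16a3, Hif1a, Egln3, Car9, Pfkfb3, Slc2a1, Vegfa and Bnip3 stand to the right of every enzyme, the highest of which is Ldha at 0.26.

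**Figure D1:**
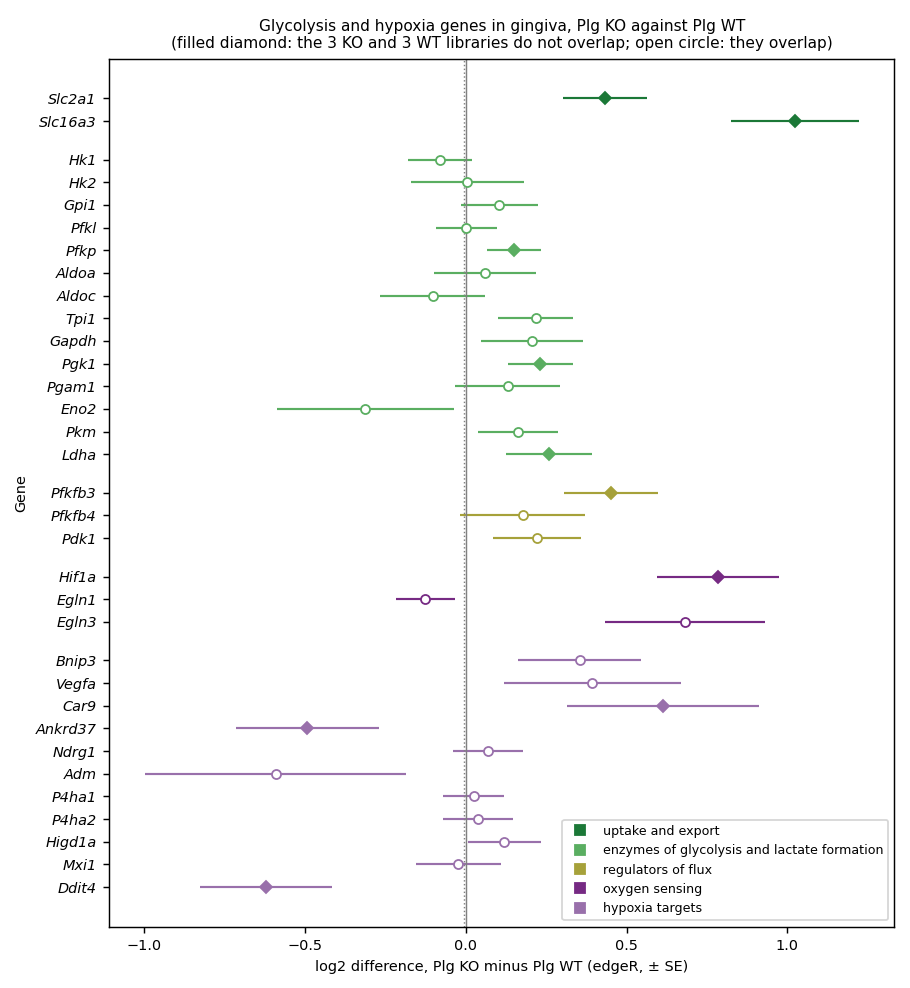
Log2 difference of each of the 33 genes between Plg KO and Plg WT gingiva (x axis, edgeR estimate with its SE, 3 libraries against 3), grouped by role (y axis, gene). Filled diamonds mark the 10 genes whose groups do not overlap, from Slc16a3 at 1.02 to Ddit4 at -0.62, and the dotted line is the median of all tested genes.

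The stretches of 200 bases before the RefSeq start sites (build GRCm38.p6) are shown for 6 of the 9 genes whose groups did not overlap and that hold the letters ACGTG. These letters are a form of the core of the hypoxia response element. The 6 genes stand for the lactate exporter, Hif1a itself, a pair of enzymes and both genes with Plg KO below. Slc2a1, Pfkfb3 and Car9, which hold the letters too, are not printed. The letters searched were ACGTG on either strand, which read CACGT on the other strand, and they are in capitals. The form GCGTG of the core was not searched and stays in lower case, as in the windows of Ankrd37 and Ddit4. The letters CACGTG, known as an E-box and bound by several other factors, contain ACGTG on both strands. In the order printed, the windows are chr11:120948867-120949066 on the plus strand, chr12:73907667-73907866 on the plus strand, chr7:46845604-46845803 on the plus strand, chrX:106186900-106187099 on the plus strand, chr8:45999851-46000050 on the minus strand and chr10:59951771-59951970 on the minus strand, each printed 5′ to 3′ toward the start site.
Slc16a3: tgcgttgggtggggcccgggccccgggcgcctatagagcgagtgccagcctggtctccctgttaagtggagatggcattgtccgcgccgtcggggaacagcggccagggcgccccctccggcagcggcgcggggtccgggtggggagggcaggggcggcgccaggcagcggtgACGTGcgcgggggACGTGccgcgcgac
Hif1a: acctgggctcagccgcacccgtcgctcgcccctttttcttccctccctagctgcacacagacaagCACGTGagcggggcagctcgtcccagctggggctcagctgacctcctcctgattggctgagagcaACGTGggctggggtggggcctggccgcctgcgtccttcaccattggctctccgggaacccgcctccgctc
Ldha: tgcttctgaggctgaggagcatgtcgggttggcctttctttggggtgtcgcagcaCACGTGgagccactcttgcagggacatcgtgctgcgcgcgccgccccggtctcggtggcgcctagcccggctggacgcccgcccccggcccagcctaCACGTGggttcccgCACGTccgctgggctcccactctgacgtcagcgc
Pgk1: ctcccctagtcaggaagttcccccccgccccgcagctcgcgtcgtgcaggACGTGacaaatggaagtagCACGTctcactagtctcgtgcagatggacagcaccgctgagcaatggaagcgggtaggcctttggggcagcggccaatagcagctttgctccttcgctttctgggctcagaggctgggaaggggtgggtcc
Ankrd37: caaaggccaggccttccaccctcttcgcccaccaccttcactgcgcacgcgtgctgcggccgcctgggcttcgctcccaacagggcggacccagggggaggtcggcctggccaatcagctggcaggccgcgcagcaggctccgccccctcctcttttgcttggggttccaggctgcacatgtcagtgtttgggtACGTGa
Ddit4: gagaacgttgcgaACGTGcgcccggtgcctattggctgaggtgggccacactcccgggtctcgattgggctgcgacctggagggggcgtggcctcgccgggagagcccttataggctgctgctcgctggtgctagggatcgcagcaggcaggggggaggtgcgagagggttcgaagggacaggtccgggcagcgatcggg

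Slc16a3 had 2 matches and Pgk1 had 2, neither within an E-box, whereas Ldha had 5 matches and Hif1a 3, counted over both strands and including the E-boxes. Over the 250 bases before a start site, ACGTG on either strand was in 20 of the 32 members with a window (62.5%). It was in 18.5% of 27025 genes and 16.6% of 32851 windows in the table. Genes without ACGTG may still hold GCGTG, which was not counted. Ndrg1 was not in that table. The members were chosen as genes of glycolysis and of the response to low oxygen, so a higher share with ACGTG than in all genes could follow from that choice. The share was 9 of 19 for the glycolysis genes and 11 of 13 for the hypoxia genes. It was 7 of 8 for the genes with Plg KO above Plg WT, 2 of 2 for those below and 11 of 22 for those with overlapping groups. A match is a run of letters and was not tested as a binding site, and genes with Plg KO above and with Plg KO below both held it.

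Slc16a3 (ENSMUSG00000025161, GRCm38 chromosome 11, 120948480 to 120960868) encodes the proton-coupled carrier that exports lactate from strongly glycolytic cells. It was at 13.8, 11.7 and 14.5 CPM (counts scaled by the TMM method to a common library size) in Plg WT 1, 2 and 3 and at 22.8, 35.6 and 23 in Plg KO 1, 2 and 3. All Plg KO libraries were above all Plg WT libraries, and Plg KO 2 stood above the rest. The means were 13.3 ± 1.49 and 27.2 ± 7.33 CPM (SD, n = 3 each), and the log2 difference was 1.02 ± 0.20 (SE). Its adjusted p was 0.137 with edgeR, 0.000718 with DESeq2 and 0.176 with limma-voom, and 0.0306 in edgeR without the filter on low counts. Leaving out 1 library at a time gave log2 differences of 0.78 to 1.13, the lowest without Plg KO 2, and no adjusted p in edgeR under 0.102. No stretch of 37 bases, the read length, is shared between its exons and those of another gene.

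Slc2a1 (ENSMUSG00000028645, chromosome 4, 119108711 to 119137983) encodes the glucose carrier of most growing cells and of basal epithelium. It was at 39, 35.9 and 33.7 CPM in Plg WT and 41.2, 56.5 and 48.9 CPM in Plg KO. The groups did not overlap, but Plg KO 1 was close to Plg WT 1. The log2 difference was 0.43 ± 0.13 (SE, edgeR adjusted p = 0.335). Levels were also divided by exon length, the bases in any annotated exon of a gene, which can exceed the transcript made. On this rough scale for comparing genes, Slc2a1 was at 10.3 ± 0.76 and Slc16a3 at 2.51 ± 0.28 CPM per kb in Plg WT (SD, n = 3). In Plg KO they were at 13.9 ± 2.18 and 5.11 ± 1.38.

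Neutrophil markers were high in the same libraries. All 10 listed neutrophil markers had positive log2 differences, 2 of 10 were called by edgeR (Clec4e, adjusted p = 0.0184, and Mmp9, 0.0245) and 9 of 10 did not overlap between groups. Their summed level was 53.2 to 87.9 CPM in Plg WT, and 312.2, 588.5 and 219.8 CPM in Plg KO 1, 2 and 3. Most of these Plg KO sums came from S100a8 (95.5, 229.3 and 49.8 CPM) and S100a9 (109.7, 237.1 and 72.2 CPM). Plg KO 1 was above Plg KO 3 for S100a8, S100a9, Il1r2 and Mmp9, and below it for the other listed neutrophil markers. Plg KO 2 was highest for the neutrophil sum and for 15 of 33 members, Slc16a3 and Hif1a among them, against 14.8% of all genes. In Plg KO 1 and 3, Slc16a3 was at 22.8 and 23 CPM and Hif1a at 73 and 56.7 CPM. None of the 10 neutrophil markers was at 0 in any library. Of 12 markers of dividing cells, 10 did not overlap and 2 were called by edgeR (Birc5, adjusted p = 0.0107, and Ccna2, 0.0198), with summed levels of 285.8 to 358.0 CPM in Plg WT and 481.2 to 600.3 CPM in Plg KO. Of 8 fibroblast markers, 7 had negative log2 differences (median -0.45), 3 had every Plg KO library below every Plg WT library and 0 were called by edgeR. Their summed level was 2192 to 3697 CPM in Plg WT and 1400 to 2570 CPM in Plg KO, lowest in Plg KO 2. Keratinocyte markers, abundant in all 6 libraries of this mucosa, overlapped at 42035 to 50411 and 43339 to 52778 CPM. Of 5 tested fat cell markers, all had negative log2 differences (median -1.32), 1 (Cidec, adjusted p = 0.0363) was called lower by edgeR and 2 did not overlap, and the summed level was 38 to 54.7 CPM in Plg WT and 20.6 to 35.4 CPM in Plg KO, without overlap. All 5 red blood cell markers had negative log2 differences (median -0.58), with 0 called by edgeR and summed levels of 113.3 to 250.6 and 84.4 to 168.6 CPM. Of 8 tested salivary gland markers 7 had positive log2 differences (median 0.75), with 0 called by edgeR, and the Plg WT libraries summed to 11629, 3417 and 1897 CPM while those of Plg KO summed to 8824 to 11052 CPM. Macrophage and endothelial markers had 0 calls in edgeR and overlapping sums, with medians of 0.01 and -0.15. Over all genes, edgeR called 0.237%. Every Plg KO library was above every Plg WT library in 7.51% of all genes, and below in 7.18%. In bulk RNA a different number of cells of a type and a different amount of RNA per cell cannot be told apart, and the part of these cells in the results was not tested.

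**Figure D2:**
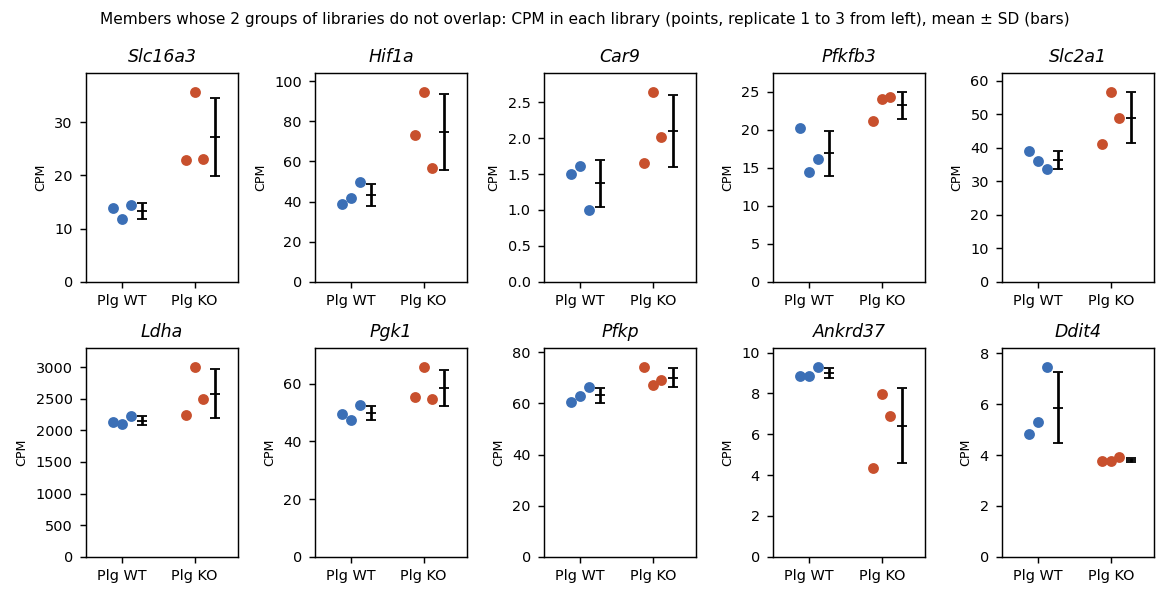
CPM in each library (y axis, from 0) for the 10 genes whose groups do not overlap, 3 Plg WT libraries in blue and 3 Plg KO libraries in orange, with mean ± SD in black. Slc16a3 is at 11.7 to 14.5 CPM in Plg WT and at 22.8 to 35.6 CPM in Plg KO, while the gap between groups for Pfkp, Pgk1 and Ldha is small against their level.

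The 14 enzymes showed 0 calls in edgeR, DESeq2 and limma-voom. At an unadjusted p under 0.05 in edgeR 0 were higher, against 4.97% of all genes, and 0 lower, against 4.27%. The median log2 difference of the enzymes was 0.12, with 11 of 14 positive, and adjusted p in edgeR ran from 0.552 to 0.999. For 3 of 14, Pfkp, Pgk1 and Ldha, every Plg KO library was above every Plg WT library, an order found in 7.51% of all genes. In order of abundance per exon length in Plg WT, Ldha (lactate dehydrogenase A, which turns pyruvate into lactate) was at 650.9 ± 19.6 CPM per kb, Aldoa (aldolase A) at 539.8 ± 21.7 and Pkm (pyruvate kinase) at 309.1 ± 12.9. Hk2, a hexokinase that traps glucose in the cell, followed at 158.2 ± 10.5, and then Tpi1, triose phosphate isomerase, at 143.7 ± 10.6. The ranges of mean ± SD of Hk2 and Tpi1 overlapped, and their order was not tested. The other hexokinase, Hk1, was at 14.3 ± 1.08. Of the phosphofructokinases, which commit sugar to the pathway, Pfkl was at 31.1 ± 1.83 and Pfkp at 4.72 ± 0.23 CPM per kb. Eno2, the enolase typical of neurons, was lowest at 0.68 ± 0.19.

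**Figure D3:**
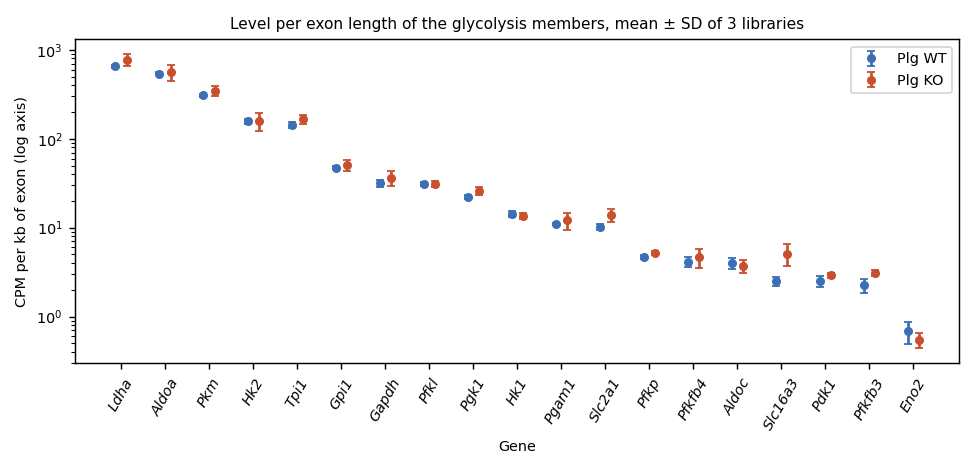
Level of the 19 glycolysis genes per exon length (y axis, CPM per kb, log axis; x axis, gene in order of the Plg WT level), as mean ± SD of 3 libraries in Plg WT (blue) and Plg KO (orange). The genotypes lie close together for the abundant enzymes such as Ldha (650.9 and 779.0 CPM per kb), and the widest gap is at Slc16a3 (2.51 and 5.11).

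Ldha (ENSMUSG00000063229, chromosome 7, 46841475 to 46855627) was at 2136, 2101 and 2227 CPM in Plg WT and 2242, 2999 and 2494 CPM in Plg KO. Plg KO 1 lay just above Plg WT 3, and Plg KO 2 was highest. The log2 difference was 0.26 ± 0.13 (SE, edgeR adjusted p = 0.631), and it was 0.14 without Plg KO 2. Pgk1 (phosphoglycerate kinase, which makes ATP) was at 49.6, 47.6 and 52.5 CPM in Plg WT and 55.5, 65.8 and 54.6 in Plg KO, a log2 difference of 0.23 ± 0.10 that was 0.14 without Plg KO 2. Pfkp was at 60.5, 62.8 and 66.5 against 74.2, 67.2 and 69 CPM, a log2 difference of 0.15 ± 0.08. In Pfkp the highest library was Plg KO 1, unlike in Ldha and Pgk1.

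The other enzymes overlapped between groups. Tpi1, Gapdh (glyceraldehyde phosphate dehydrogenase), Pkm, Pgam1 (phosphoglycerate mutase) and Gpi1 (glucose phosphate isomerase) had log2 differences of 0.22, 0.21, 0.16, 0.13 and 0.10. Aldoa, Hk2 and Pfkl were at 0.06, 0.01 and 0.00, and Hk1, Aldoc (the aldolase of brain) and Eno2 at -0.08, -0.10 and -0.31. Stretches of the read length are shared with exons of other genes for 54.5% of positions in Pgk1, 36.8% in Pgam1, 31.3% in Pkm, 27.1% in Gapdh, 19.4% in Gpi1, 16% in Ldha and 10.1% in Aldoa. Exons of other gene models also cover 15.3% of the exon bases of Pkm and 11.5% of those of Gpi1. The sources used here do not say how reads that fit several genes were counted, so the levels of these genes, and Gapdh's low place in the order (31.6 ± 3.03 CPM per kb), are uncertain. The order of the enzymes also depends on the exon length, which takes in every annotated exon (13401 bases for Pfkp and 4133 for Gapdh).

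Of the 14 enzymes, only Hk2, Aldoa, Gapdh and Gpi1 were lowest in Plg KO 1, the library with the lowest level of muscle transcripts. Plg KO 1 was also the lowest library for 18.8% of all genes. Hk2 was at 940.3, 883.8 and 1009 CPM in Plg WT and 703.9, 1105 and 1033 CPM in Plg KO, and Aldoa at 1626, 1502 and 1586 against 1263, 1850 and 1802 CPM. Within Plg WT, Aldoa and Gapdh were highest in Plg WT 1, and Hk2 and Gpi1 in Plg WT 3. The summed level of 14 skeletal muscle markers was 23754, 11602 and 13815 CPM in Plg WT and 4911, 20279 and 23552 CPM in Plg KO, with 0 of 14 called by edgeR, 0 of 14 without overlap and none at 0. The muscle isozymes Pfkm, Pgam2 and Eno3, picked after their values were seen, showed the same low library, with Eno3 at 224.9 CPM in Plg KO 1 and 586.9 to 1287 CPM in the other 5. Without Plg KO 1 the log2 difference was 0.18 for Hk2, 0.21 for Aldoa, 0.21 for Gpi1 and 0.36 for Gapdh. The part of muscle in these values was not tested.

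Without Plg KO 1 the number of members higher in Plg KO at an unadjusted p under 0.05 in edgeR went from 5 to 10 of 33 (30.3%, against 4.95% of all genes in that fit), by adding Tpi1, Gapdh, Ldha, Bnip3 and Vegfa, and 0 members were called. Without Plg WT 3 or Plg KO 2 it was 3 of 33 each, against 3.95% and 3.45% of all genes. With any of the other 3 libraries left out it was 4 to 6, against 3.74% to 8.62% of all genes. Plg KO 1 had the lowest value of the 6 libraries for 9 of 33 members (27.3%, against 18.8% of all genes), and Plg KO 2 the highest for 15 of 33 (45.5%, against 14.8%). Slc2a1, Slc16a3 and Hif1a were at an unadjusted p under 0.05 in each of the 6 fits that left out 1 library.

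**Figure D4:**
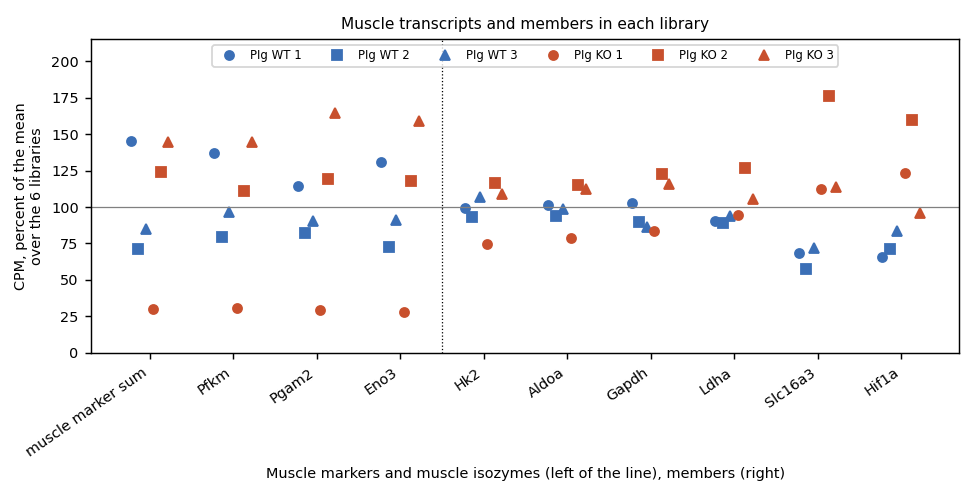
CPM of each library as percent of the mean over the 6 libraries (y axis) for the sum of 14 muscle markers and 3 muscle isozymes (left of the dotted line) and for 6 members (right), Plg WT in blue and Plg KO in orange, with a symbol per replicate number. Plg KO 1, the orange circle, is lowest for the muscle transcripts, Hk2, Aldoa and Gapdh, and stands above all Plg WT libraries for Slc16a3, Ldha and Hif1a.

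The 3 regulators of flux all had positive log2 differences and 0 were called. Pfkfb3 (ENSMUSG00000026773, chromosome 2, 11471433 to 11554077) makes the regulatory form of fructose bisphosphate, the strongest activator of phosphofructokinase, and was at 20.2, 14.5 and 16.1 CPM in Plg WT and 21.2, 24 and 24.3 CPM in Plg KO. The groups did not overlap, with Plg WT 1 just below Plg KO 1. The log2 difference was 0.45 ± 0.15 (SE, edgeR adjusted p = 0.374), and the adjusted p was 0.0944 without Plg WT 1. Pfkfb4, a related enzyme, overlapped at 17.4 to 23 and 17.7 to 28.7 CPM (log2 difference 0.18 ± 0.19). Pdk1, a kinase that inhibits pyruvate dehydrogenase and so limits the use of pyruvate in mitochondria, overlapped at 16.1 to 21.6 and 21.4 to 24.1 CPM (0.22 ± 0.14).

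Of the oxygen-sensing genes, Hif1a (ENSMUSG00000021109, chromosome 12, 73901375 to 73947530) was at 38.9, 41.9 and 49.5 CPM in Plg WT and 73, 94.5 and 56.7 CPM in Plg KO. All Plg KO libraries were above all Plg WT libraries, and Plg KO 3 was the nearest to them. The means were 43.4 ± 5.45 and 74.8 ± 18.9 CPM (SD, n = 3 each), a log2 difference of 0.78 ± 0.19 (SE). Its adjusted p was 0.219 with edgeR, 0.0184 with DESeq2 and 0.252 with limma-voom, and the log2 difference was 0.58 to 0.95 with 1 library left out. Exons of other gene models cover 8.11% of its exon bases, and the library kit does not mark strand, so reads from these models cannot be told apart from Hif1a there.

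The hydroxylases that mark Hif1a protein had log2 differences of opposite sign. Egln3, itself a hypoxia-induced gene, was at 12.8, 14.8 and 11.3 CPM in Plg WT and 13.3, 26.3 and 22.9 CPM in Plg KO. Plg KO 1 lay among the Plg WT libraries and the other 2 were above them. The log2 difference was 0.68 ± 0.25 (SE, edgeR adjusted p = 0.441). Egln1, the main oxygen sensor of most tissues, was at 35.8 to 37.2 CPM in Plg WT and 31.5 to 36.4 CPM in Plg KO, with a log2 difference of -0.13 ± 0.09 and overlapping groups.

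Of the 11 hypoxia targets, 0 were called by edgeR, DESeq2 or limma-voom. At an unadjusted p under 0.05 edgeR gave 0 that were higher, against 4.97% of all genes, and 1 that was lower, against 4.27%. The log2 differences of the targets ran from -0.62 to 0.61 with a median of 0.04, and 7 of 11 were positive. Ddit4 (ENSMUSG00000020108, chromosome 10, 59949669 to 59951834), an inhibitor of mTOR signalling induced by hypoxia, glucocorticoids and other stress, was at 4.83, 5.32 and 7.46 CPM in Plg WT and 3.75, 3.77 and 3.92 CPM in Plg KO. The 3 Plg KO libraries were nearly equal and below all Plg WT libraries, of which Plg WT 3 stood apart. The log2 difference was -0.62 ± 0.21 (SE, edgeR adjusted p = 0.376), and it was -0.41 without Plg WT 3.

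Ankrd37, a small ankyrin protein and a direct Hif1a target, was at 8.84, 8.85 and 9.29 CPM in Plg WT and 4.37, 7.96 and 6.89 CPM in Plg KO. Plg KO 1 was far below the other 5 libraries, and the log2 difference of -0.49 ± 0.22 was -0.28 without it. Exons of Ufsp2 and Lrp2bp cover 26.4% of its exon bases, so its reads cannot be told apart from theirs there. Adm, the vasodilator adrenomedullin, was also lowest in Plg KO 1 (1.03 CPM, against 2.91 to 4.29 in the others), and its log2 difference of -0.59 ± 0.41 was -0.23 without that library.

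Car9, a carbonic anhydrase of the cell surface that handles acid, was the least abundant target per exon length (0.59 ± 0.14 CPM per kb in Plg WT) and was at 1.5, 1.61 and 0.99 CPM in Plg WT and 1.65, 2.64 and 2.02 CPM in Plg KO. The groups did not overlap, but Plg WT 2 and Plg KO 1 were nearly equal, and these are only 31 to 72 counts per library. Exons of another gene model cover 9.29% of the exon bases of Car9. The log2 difference was 0.61 ± 0.30 (SE, edgeR adjusted p = 0.605). Vegfa, the main growth factor of blood vessels, was at 8.84, 8.21 and 7.62 CPM in Plg WT and 6.32, 13 and 13.2 CPM in Plg KO, so that Plg KO 1 was lowest of all and the other 2 highest. Its log2 difference was 0.39 ± 0.28, and 0.67 without Plg KO 1.

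Bnip3, which promotes removal of mitochondria, overlapped at 12.1 to 15.5 and 13.1 to 20.9 CPM (log2 difference 0.35 ± 0.19), and 53.9% of its read-length stretches are shared with other genes. Higd1a, a mitochondrial survival protein, had a log2 difference of 0.12 and Ndrg1, a stress and differentiation protein of epithelia, of 0.07. For Higd1a 26.4% of the read-length stretches are shared. Exons of other gene models cover 22.3% of the exon bases of Bnip3, 22.5% of those of Higd1a and 8.43% of those of Ndrg1. P4ha1 and P4ha2, the collagen prolyl hydroxylases, were at 0.02 and 0.04, and Mxi1, an antagonist of Myc, at -0.02. All of these overlapped between groups. P4ha1, at 25.7 to 28 CPM in Plg WT and 25.5 to 28.2 CPM in Plg KO, had nearly the same level in all 6 libraries.

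Set side by side, the glycolysis genes had a median log2 difference of 0.16 with 16 of 19 positive (84.2%), and the hypoxia genes a median of 0.05 with 9 of 14 positive (64.3%), where all tested genes had a median of -0.00 and 49.2% positive. Without Plg KO 2 the glycolysis median was 0.07 with 12 of 19 positive, and the hypoxia median 0.05 with 10 of 14 positive. The difference between the sets was not tested, since genes of a set share their libraries and are not replicates. The 14 enzymes, Pfkfb4, Pdk1, Egln1 and 7 of 11 targets lay between -0.31 and 0.39. Above that range were Slc16a3, Hif1a, Egln3, Car9, Pfkfb3 and Slc2a1, and below it Ankrd37, Adm and Ddit4. The heat map of values by library shows the warm column of Plg KO 2 beside the mixed column of Plg KO 1.

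**Figure D5:**
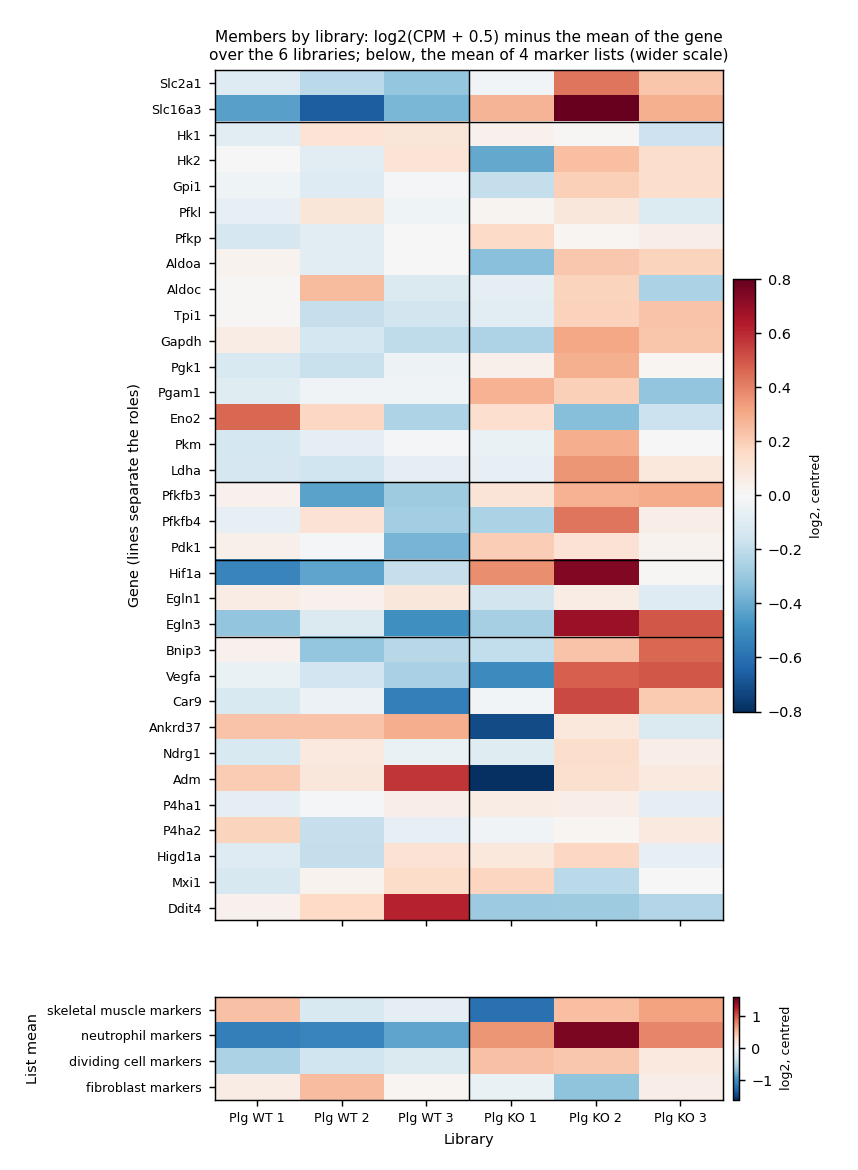
Each gene in each library (rows, genes by role; columns, 3 Plg WT then 3 Plg KO libraries) as log2(CPM + 0.5) minus the gene's mean over the 6 libraries, and below, on a wider colour scale, the mean of 4 marker lists. Plg KO 2 is highest for 15 of the 33 genes and for neutrophil markers, and Plg KO 1 is lowest for 9 genes and for muscle markers.

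Further genes of the same pathways were counted from lists. Of 31 other glycolysis genes, 26 were tested, 0 were called by edgeR, DESeq2 or limma-voom, 0 were at an unadjusted p under 0.05 in edgeR, and the median log2 difference was 0.04. The smallest p among them belonged to Gapdhs (the form in sperm, -0.51 ± 0.31), Pfkfb1 (0.58 ± 0.44) and Ldhb (the lactate dehydrogenase of heart, 0.46 ± 0.37), all with overlapping groups. Of 14 other oxygen-sensing genes, 13 were tested, 0 were called by edgeR, DESeq2 or limma-voom, 1 was lower and 0 were higher at an unadjusted p under 0.05 in edgeR, and the median was -0.03. That gene was Arnt2, a partner of Hif1a that is scarce in this tissue, at 0.955, 1.18 and 1.51 CPM in Plg WT and 0.729, 0.505 and 0.308 CPM in Plg KO (-1.23 ± 0.39, edgeR adjusted p = 0.365). Next in p were the coactivator Ep300 (-0.25 ± 0.13) and Egln2, the third hydroxylase (-0.14 ± 0.10).

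All 32 other hypoxia targets were tested, 0 were called by edgeR or limma-voom and 1 (Igfbp3) by DESeq2, and the median log2 difference was 0.10 with 20 of 32 positive. At an unadjusted p under 0.05 in edgeR 5 were higher (Igfbp3, Ero1l, Pgm2, Fam162a and Ppp1r3c) and 1 was lower (Cxcr4), the last 3 named after their values were seen. Over all genes, 4.97% were higher and 4.27% lower at that p. Groups did not overlap for 4 of 32 with Plg KO above and 2 of 32 with Plg KO below, orders found in 7.51% and 7.18% of all genes. Igfbp3, a binding protein for insulin-like growth factors, was at 32, 36.2 and 32.5 CPM in Plg WT and 47.1, 47.8 and 45.2 CPM in Plg KO. The libraries of each genotype lay close together and the groups well apart (log2 difference 0.48 ± 0.09, edgeR adjusted p = 0.115). Ero1l, an oxidase of the endoplasmic reticulum, was at 12.1, 8.93 and 8.71 against 13.6, 16.5 and 15.6 CPM (0.61 ± 0.17, edgeR adjusted p = 0.27), and Pgm2, a phosphoglucomutase, had a log2 difference of 0.37 ± 0.13. Both had every Plg KO library above every Plg WT library.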

How the data were processed

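Per the labels' protocols, total RNA of gingiva was made into libraries with the Nextera XT kit, which does not mark strand, and read as 37 bp pairs. The submitters' processing notes list STAR 2.5.2a, DESeq2, edgeR and limma and the builds GRCm38.p3 and mm10 without their roles. The sources used here do not give the counting tool, its annotation or how it treated shared reads. Raw counts per gene and CPM values scaled by TMM were used as deposited by the authors. The 22 entries that name no gene (at most 3.55e-05% of a library) were left out. Symbols came from the CPM table and, where absent there, from GENCODE M21, as did positions (GRCm38) and exon lengths (the union of all annotated exons of a gene).

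The members and lists were chosen with earlier results of these data known. All 33 members were described, and of the 3 lists of other pathway genes the called genes and the 3 with the smallest p. Of marker lists, any gene could be named. Counts were tested with edgeR 4.0.16 (R 4.3.3, TMM, filterByExpr, quasi-likelihood F test, Benjamini-Hochberg over 17757 genes, genotype only), and a gene was called at an adjusted p under 0.05. CPM in the text are counts scaled by TMM in that fit, and the SE is the log2 difference divided by the square root of F. Each pair of libraries differed beyond sampling noise (chi-square per degree of freedom 21.4 to 111 over genes with at least 20 counts). DESeq2 1.42.0, limma 3.58.1 (voom, and trend on log2 of deposited CPM plus 0.5), other scaling factors and filters, removal of the 10 most abundant or of muscle genes, a sex term, a replicate block, leaving out each library and, added after seeing the data, reads recovered whole from 100% of the CPM values were alternatives. The fits were tested on simulated data. Shared sequence is the share of a gene's exonic 37-mers that occur in exons of other genes. Promoter windows are from RefSeq (GRCm38.p6), and 32 of 33 members had one.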

Additional observations from a re-analysis of the deposited data

How the results depend on the processing

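Of all genes, 34 were called higher and 8 lower, and these counts were 95 and 26 at an adjusted p under 0.10, 275 and 128 with DESeq2 and 122 and 40 without a filter, whereas limma-trend on deposited CPM called 13 lower and the sex term 54 higher. With 1 library left out they ran from 1 to 184 higher and 1 to 35 lower, the highest without Plg WT 1 and 1 to 2 in each direction without Plg WT 2, Plg WT 3, Plg KO 2 or Plg KO 3. Members called higher numbered 2 with DESeq2 and 1 without a filter, and 0 under the other alternatives, with 0 called lower. Same-numbered libraries correlated at -0.255, -0.0131 and -0.225 in their deviations from group means, and different-numbered ones at -0.101 to 0.288. These values show no pairing by number, but with 3 libraries in a group they cannot exclude it. The replicate block gave 2 genes higher and 0 lower, with 0 members called. The median of the glycolysis genes was 0.07 to 0.21 and that of the hypoxia genes 0.04 to 0.08 with 1 library left out. The direction of 25 of 33 members was kept under all 18 alternatives. The other 8 were not called and had main log2 differences of at most 0.18 in size. Hk2 went to -0.0005 with DESeq2 and RLE factors, -0.0178 with limma-voom, -0.0174 with upper-quartile factors, -0.0236 with limma-trend, -0.0197 with the replicate block and -0.0187 with the sex term. Pfkl went to -0.0037 with DESeq2 and RLE factors, -0.0217 with upper-quartile factors, -0.0005 without muscle genes and -0.0022 with limma-trend. With 1 library left out, Hk2 ran from -0.12 to 0.18, Pfkl from -0.0433 to 0.0557, Aldoa from -0.0362 to 0.21, Aldoc from -0.23 to 0.0081, Pfkfb4 from -0.0220 to 0.33, P4ha1 from -0.0052 to 0.0698, P4ha2 from -0.0396 to 0.15 and Mxi1 from -0.13 to 0.0725. The cause of these changes was not tested. A p that misses the threshold does not show that the enzymes were unchanged. Car9, Adm and Eno2 had 31 to 150 counts per library, and counting error adds most to them.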
